A study of Mus musculus with 6 samples.

Results

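The 10 genes described here encode transcription factors that direct CD8 T cells towards the effector state: Tbx21, Eomes, Id2, Prdm1, Zeb2, Irf4, Batf, Batf3, Runx3 and Bhlhe40. They were picked by gene symbol from the 49492 rows of the count table, and all 10 were found, each in a single row. All 10 also passed the low-count filter that left 15186 genes to test. The RNA came from CD8 T cells of the spleen of OT-I mice. These mice carry a transgenic T cell receptor for an ovalbumin peptide. The cells were taken as naive and then held for 24 hours on immobilised anti-CD3 (1 µg/ml) with dissolved anti-CD28 (1 µg/ml), which stands in for antigen and costimulation. The KO libraries, replicates 4 to 6, came from NIK-CD4Cre-OT-I mice. There, Cre under Cd4 control, active from the thymus on, targets Map3k14. That gene encodes NIK, the kinase at the head of noncanonical NF-kB signalling. The WT libraries, replicates 1 to 3, came from wild type OT-I mice. Both groups share the C57/BL6 background, the OT-I receptor, the stimulation and an age of 6 to 8 weeks. Whether the 3 libraries of a group are 3 mice is not in the labels, so p-values measure only the spread between these libraries, part of which may be technical.

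In the biology of CD8 T cells, receptor signals induce IRF4 and BATF, which bind DNA together at composite sites and set how strongly a cell enters the effector programme. T-bet (Tbx21), EOMES and RUNX3 then open and activate genes of cytotoxicity and interferon gamma. Blimp-1 (Prdm1), ZEB2 and ID2 push cells towards terminal effector fates, largely by repressing or neutralising factors of naive and memory cells.

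Total counts were 41311346 to 47851445 per library, so a count of 3 corresponded to 0.0627 to 0.0722 CPM (read counts brought to the same library size with TMM factors). This floor covers counting error only. The targeted gene Map3k14 stood at 50.7, 64.5 and 54.7 CPM in KO replicates 4 to 6, against 53.6, 65.5 and 65.3 CPM in WT replicates 1 to 3. Its count did not set the groups apart (log2 fold -0.12, edgeR adjusted p = 0.81). A count over the whole gene checks a conditional allele only in part, so KO and WT below mean the libraries labelled so. Each genotype held male and female mice, and so more than 1 mouse, since Xist had 82938 to 92901 counts in KO replicate 6 and in WT replicates 1 and 3, and 22 to 38 counts in the others. All 10 markers of CD8 T cells were well expressed, with a summed level of 2936 to 3248 CPM in KO and 2874 to 3162 CPM in WT. Of these, 8 had estimates above zero and 2 below, where 47.6% of all tested genes were below. At an unadjusted edgeR p under 0.05, Cd3e was higher and Trac lower in KO, beside 7.26% of all tested genes. Groups did not overlap for 3 higher in KO (Cd3d, Cd8b1 and Lck) and 1 lower (Trac), beside 12.8% of all tested genes. Of 4 markers of CD4 T cells, only Cd4 stayed under 1 CPM in every library. Zbtb7b had 7.04, 11.3 and 5.44 CPM in KO replicates 4 to 6, against 5.93, 16.3 and 14.2 CPM in WT replicates 1 to 3. Cd40lg had 1.36, 1.73 and 1.49 CPM in KO, against 2.07, 3.02 and 1.23 CPM in WT, and Foxp3 is given below. These 3 had estimates below zero, while that of Cd4 was above zero (log2 fold 0.45). Cd4 had 0.920, 0.841 and 0.722 CPM in KO replicates 4 to 6, against 0.713, 0.744 and 0.367 CPM in WT replicates 1 to 3. None of the 4 was at an unadjusted p under 0.05.

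None of the 10 factors differed between the genotypes past the threshold of an adjusted p under 0.05. In edgeR's quasi-likelihood test 0 of 10 were called, where 0.00659% of all tested genes were, and DESeq2 (0.586% of all genes) and limma-voom (0.00659%) also called 0. At an unadjusted p under 0.05 there were 2 of 10, Zeb2 and Batf3, against 7.26% of all tested genes. That count moved with single libraries. It was 0 without WT replicate 2, WT replicate 3 or KO replicate 5 (beside 4.41%, 3.63% and 6.10% of all tested genes) and 4 without WT replicate 1 (Id2, Prdm1, Zeb2 and Batf3, beside 14.9%). Without KO replicate 4 it was 1 (Tbx21, beside 9.58%), and without KO replicate 6 it was 2 (Zeb2 and Batf3, beside 4.68%). Batf3 no longer passed with a term for sex (unadjusted p = 0.0519), which left 1 of 10 beside 6.65%, or without the low-count filter (unadjusted p = 0.0952), which left 1 of 10 beside 5.41%. In 0 of the 10 did the KO and WT libraries fail to overlap, against 12.8% of all tested genes. The estimates were below zero for 9 of 10, the exception being Eomes, beside 47.6% of all tested genes. The median log2 fold (KO over WT) of the 10 was -0.16, beside 0.01 for all tested genes. The direction of the 4 smallest estimates, those of Eomes, Batf, Runx3 and Bhlhe40, depended on single libraries.

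The precision of the comparison differed between the factors. For 6 of the 10 the 95% interval of the fold lay within 1.5-fold in both directions, and for 8 it lay within 2-fold. The exceptions to the wider limit were Prdm1 and Batf3. A missed threshold does not show that the levels were equal, and for these 2 genes a difference of 2-fold or more lay inside the interval.

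**Figure D1:**
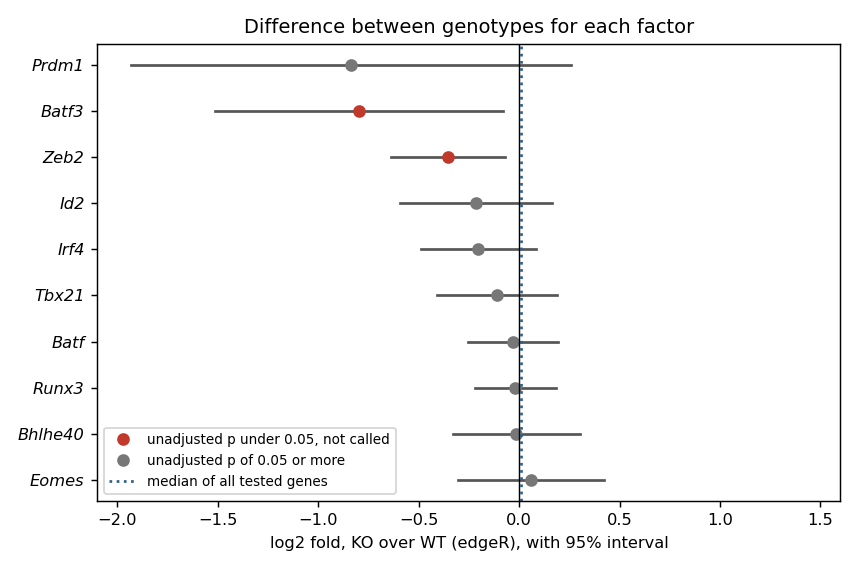
Log2 fold (KO over WT, horizontal axis) of each factor from edgeR, with its 95% interval as a bar, over 3 KO and 3 WT libraries. The intervals of Zeb2 and Batf3 lie below zero before adjustment, the interval of Prdm1 is the widest, and the dotted line marks the median of all tested genes, 0.01.

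Levels were compared between the genes per length, as RPKM over all annotated exons of each gene, and ordered by their WT mean. Irf4 led with 152 ± 19.2 RPKM in KO and 175 ± 22.7 RPKM in WT (SD, n = 3 each), above 98.5% of tested genes with a length. Eomes, Tbx21, Bhlhe40 and Runx3 followed with WT means of 52.7, 52.0, 43.3 and 38.2 RPKM, and each overlapped its neighbour in that order over the 6 libraries. Id2 (15.8 RPKM in WT) lay apart from these. Below it, Batf3 and Batf, each at 11.7 RPKM in WT, overlapped in range with each other and with Id2. Zeb2 (1.10 RPKM in KO and 1.41 in WT) and Prdm1 (0.297 RPKM in KO and 0.530 in WT) formed the low end, without overlap with any other factor. The exon length of Zeb2, 19942 bases over all annotated transcripts, is far above that of the other factors and lowers its value on this scale.

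**Figure D2:**
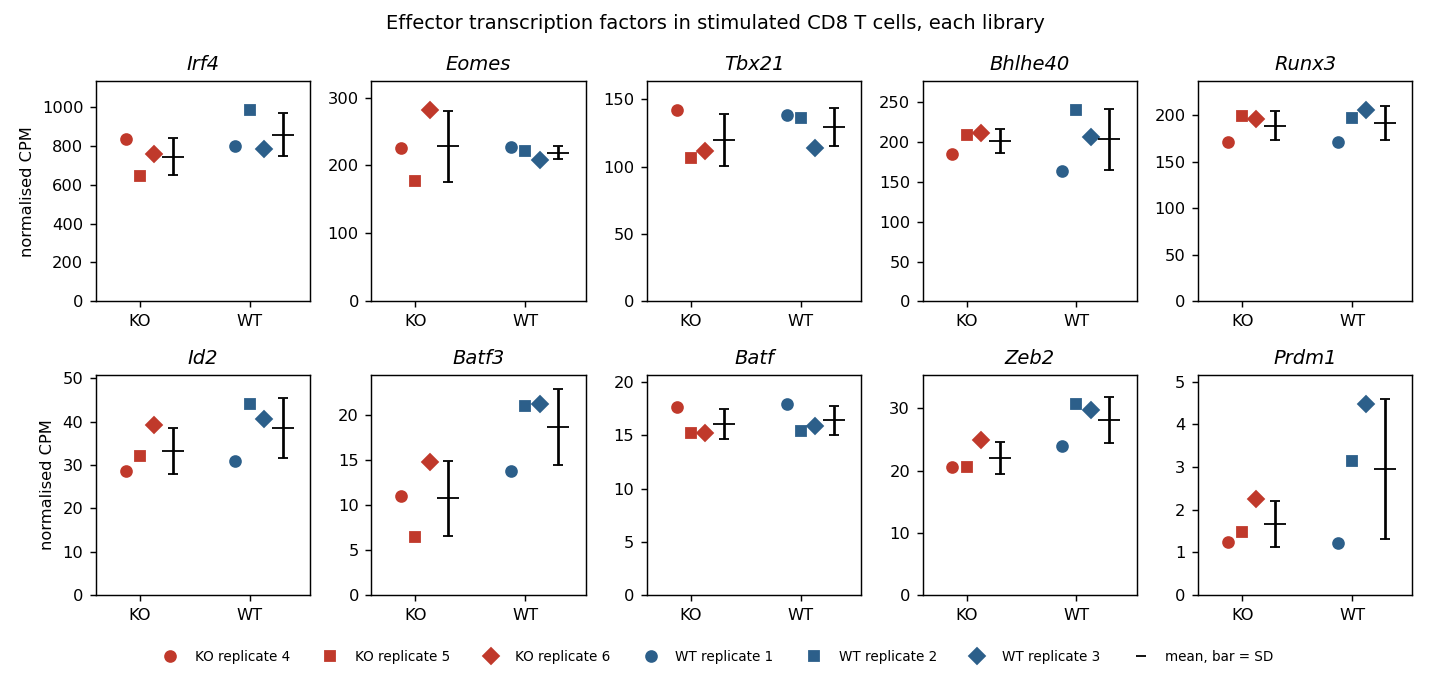
Normalised CPM (vertical axis, from zero, its own scale for each gene) of the 10 factors in each library, with KO left of WT and the mean and SD beside the points. Irf4 lies between 645 and 985 CPM and Prdm1 between 1.23 and 4.49 CPM, and the KO and WT points overlap in every panel.

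Zeb2 and Prdm1 encode repressors that act late in effector differentiation, and Batf3 encodes a BATF relative that also pairs with JUN proteins. These 3 had the largest estimates. Their RefSeq start regions on GRCm38.p6 are printed with matches to 6 searched motifs in capitals, 250 bases before to 50 after the start. The motifs, searched on both strands, were TGANTCA (AP-1, the site that BATF proteins share with JUN), CACGTG (E-box of BHLHE40), CAGGTG (E-box of ZEB proteins), AGGTGTG (T-box), TGTGGT (RUNX) and the kB consensus of NF-kB, and none of the matches found overlapped another. Zeb2 has 4 such regions in the table, and the one printed was chosen because it is the one with matches, at TGAGTCA and TGACTCA.
Zeb2, chr2:45110228-45110527, minus strand: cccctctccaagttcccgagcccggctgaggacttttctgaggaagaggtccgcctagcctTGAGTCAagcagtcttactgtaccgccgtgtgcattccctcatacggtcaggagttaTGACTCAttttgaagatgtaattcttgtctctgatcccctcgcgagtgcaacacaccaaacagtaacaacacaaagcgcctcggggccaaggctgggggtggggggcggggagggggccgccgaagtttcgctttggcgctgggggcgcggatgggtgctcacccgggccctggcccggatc
Batf3, chr1:191098164-191098463, plus strand: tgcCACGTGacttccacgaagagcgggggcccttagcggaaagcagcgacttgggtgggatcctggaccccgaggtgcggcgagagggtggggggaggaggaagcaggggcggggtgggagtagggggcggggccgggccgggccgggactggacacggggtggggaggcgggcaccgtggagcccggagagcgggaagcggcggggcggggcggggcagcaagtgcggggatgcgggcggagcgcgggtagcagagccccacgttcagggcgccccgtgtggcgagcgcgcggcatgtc
Prdm1, chr10:44458699-44458998, minus strand: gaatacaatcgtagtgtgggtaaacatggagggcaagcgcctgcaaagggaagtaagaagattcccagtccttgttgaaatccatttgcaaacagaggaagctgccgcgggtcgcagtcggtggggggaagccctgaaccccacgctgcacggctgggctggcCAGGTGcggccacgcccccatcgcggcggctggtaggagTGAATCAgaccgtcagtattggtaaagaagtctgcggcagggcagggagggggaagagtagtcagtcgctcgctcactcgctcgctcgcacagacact
AP-1 letters occurred in 7.81% of all 32851 start regions, the BHLHE40 E-box in 7.15% and the ZEB E-box in 20.2%. The Prdm1 region held 1 AP-1 match, TGAATCA, and 1 ZEB E-box, and the Batf3 region held the BHLHE40 E-box near its upstream end. The table held regions for 9 of the 10 factors (Bhlhe40 was named only), 13 regions in all, of which 2 held AP-1 letters, 1 the BHLHE40 E-box, 3 the ZEB E-box, 2 the RUNX motif (16.8% of all regions), 0 the T-box letters (5.84% of all regions) and 0 the kB consensus (8.46% of all regions). A match is a run of letters and not a shown binding site.

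Zeb2 (chromosome 2, 44983632 to 45117395, minus strand, GRCm38) encodes a zinc finger repressor that acts with T-bet in terminal effector cells. It had 20.5, 20.5 and 25.0 CPM in KO replicates 4 to 6, against 23.9, 30.8 and 29.8 CPM in WT replicates 1 to 3. KO replicates 4 and 5 lay under every WT library, while KO replicate 6 lay above WT replicate 1. The fold was 0.782, with a 95% interval of 0.643 to 0.952 (log2 fold -0.35, SE 0.12; unadjusted p = 0.021; edgeR adjusted p = 0.63; DESeq2 adjusted p = 0.305). When WT replicate 1 was left out the log2 fold was -0.46 (edgeR adjusted p = 0.101) and without WT replicate 2 it was -0.29. The antisense gene Zeb2os, which overlaps it, had 54 counts over all libraries.

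Batf3 (chromosome 1, 191097847 to 191108945, plus strand) encodes a basic leucine zipper factor best known for its need in cross-presenting dendritic cells, and T cells express it on activation. It had 11.1, 6.43 and 14.8 CPM in KO replicates 4 to 6, against 13.8, 20.97 and 21.3 CPM in WT replicates 1 to 3. The 2 highest libraries were WT replicates 2 and 3, and WT replicate 1 fell within the KO range. The fold was 0.575 with an interval of 0.350 to 0.945 (log2 fold -0.80, SE 0.30; unadjusted p = 0.034; edgeR adjusted p = 0.67; DESeq2 adjusted p = 0.231). KO replicate 5 carried much of this, and without it the log2 fold was -0.54, while without KO replicate 6 it was -1.09. The 7 dendritic cell markers summed to 18.7, 13.3 and 20.7 CPM in KO replicates 4 to 6 and to 12.2, 18.5 and 16.1 CPM in WT replicates 1 to 3. Of the 4 markers that passed the low-count filter, 3 had estimates above zero (Itgax, Zbtb46 and Clec9a) and 1 below (Flt3), none at an unadjusted p under 0.05. Clec9a, which marks cross-presenting dendritic cells, had 1.61, 0.182 and 1.44 CPM in KO replicates 4 to 6, against 0.490, 0.438 and 0.0432 CPM in WT replicates 1 to 3. The other 3 markers, Xcr1, Siglech and Cd209a, stayed under 1 CPM in every library, with Cd209a at 0 counts. Whether such cells contributed to the Batf3 values was not tested.

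Prdm1 (chromosome 10, 44437177 to 44528501, minus strand) encodes Blimp-1, the repressor that drives terminal differentiation of effector T cells and of plasma cells. It was the least expressed of the factors, with 59, 65 and 94 counts in KO replicates 4 to 6, against 55, 144 and 208 counts in WT replicates 1 to 3. In CPM these were 1.23, 1.48 and 2.26 in KO and 1.23, 3.15 and 4.49 in WT. WT replicate 1 was the lowest of all 6 libraries, so the groups overlapped fully at the low end. The fold was 0.559 with an interval of 0.262 to 1.20 (log2 fold -0.84, SE 0.46; edgeR adjusted p = 0.71), which spans lower and higher levels. The spread within groups was larger than for 97.2% of tested genes. Leaving out WT replicate 3 brought the log2 fold to -0.41, and leaving out WT replicate 1 brought it to -1.21 (edgeR adjusted p = 0.125).

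B cells, plasma cells and regulatory T cells also use Prdm1. The 8 markers of B cells and plasma cells summed to 29.7, 32.4 and 41.2 CPM in KO replicates 4 to 6, against 25.3, 72.7 and 48.1 CPM in WT replicates 1 to 3. The sum was highest in WT replicates 2 and 3, as Prdm1 was. Foxp3, which defines regulatory T cells, had 1.90, 3.05 and 4.81 CPM in KO replicates 4 to 6, against 4.70, 3.44 and 11.5 CPM in WT replicates 1 to 3. It was highest in WT replicate 3, but WT replicate 2 lay below WT replicate 1 and KO replicate 6. All 8 B and plasma cell markers passed the low-count filter and none of them was at 0 counts. The part of such cells in the Prdm1, Zeb2 and Batf3 values was not tested. In bulk RNA fewer cells of a type and less RNA per cell cannot be told apart. The 10 markers of macrophages and monocytes summed to 19.8, 9.52 and 22.9 CPM in KO replicates 4 to 6, against 10.001, 11.9 and 6.45 CPM in WT replicates 1 to 3, with overlap. Of the 8 that passed the low-count filter 7 had estimates above zero. Lyz2, the lysozyme gene of myeloid cells, was at an unadjusted p under 0.05, with 4.72, 1.00 and 2.65 CPM in KO replicates 4 to 6, against 1.16, 0.963 and 0.324 CPM in WT replicates 1 to 3 (log2 fold 1.78; edgeR adjusted p = 0.64). Itgam, Fcgr1 and Cd14 stayed under 1 CPM in every library, and no marker of this list was at 0 counts in all 6.

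The T-box factors stood at high and similar levels in both groups. Tbx21 (chromosome 11, 97098071 to 97115331, minus strand) encodes T-bet, the activator of interferon gamma and of effector fate. It had 142, 107 and 111 CPM in KO replicates 4 to 6, against 139, 136 and 113 CPM in WT replicates 1 to 3. KO replicate 4 was the highest library and KO replicates 5 and 6 the lowest, with WT in between. The fold was 0.927 with an interval of 0.755 to 1.14 (log2 fold -0.11, SE 0.13; edgeR adjusted p = 0.85). Eomes (chromosome 9, 118478212 to 118486132, plus strand) encodes the T-box relative that sustains memory cells and cytotoxic genes. It had 225, 177 and 282 CPM in KO replicates 4 to 6, against 228, 221 and 208 CPM in WT replicates 1 to 3, so KO held both the highest and the lowest library. Its SD was 52.6 CPM in KO and 9.80 CPM in WT (n = 3 each). The log2 fold was 0.06 (SE 0.15; edgeR adjusted p = 0.94), and it was -0.12 without KO replicate 6.

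IRF4 and BATF mark the strength of receptor signalling in CD8 T cells. Irf4 (chromosome 13, 30749226 to 30766976, plus strand) had 833, 645 and 756 CPM in KO replicates 4 to 6, against 801, 985 and 784 CPM in WT replicates 1 to 3. WT replicate 2 was the highest and KO replicate 5 the lowest, and the other libraries interleaved. The fold was 0.869 with an interval of 0.712 to 1.06 (log2 fold -0.20, SE 0.12; edgeR adjusted p = 0.72). Batf (chromosome 12, 85686669 to 85709087, plus strand) was the steadiest of the 10. It had 17.6, 15.2 and 15.2 CPM in KO replicates 4 to 6, against 18.0, 15.4 and 15.8 CPM in WT replicates 1 to 3. The highest library exceeded the lowest 1.18-fold for Batf and 3.31-fold for its relative Batf3. The fold of Batf was 0.978 with an interval of 0.837 to 1.14 (log2 fold -0.03, SE 0.10; edgeR adjusted p = 0.95), and its estimate was 0.04 without WT replicate 1.

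Id2 and Bhlhe40 encode helix-loop-helix proteins with different actions. ID2 lacks a DNA-binding region and holds E proteins inactive, which favours short-lived effector cells. Id2 (chromosome 12, 25093799 to 25097140, minus strand) had 28.6, 32.0 and 39.1 CPM in KO replicates 4 to 6, against 30.9, 44.1 and 40.6 CPM in WT replicates 1 to 3. As for Zeb2 and Batf3, WT replicates 2 and 3 were the highest and WT replicate 1 lay within the KO range. The fold was 0.861 with an interval of 0.663 to 1.12 (log2 fold -0.22, SE 0.16; edgeR adjusted p = 0.77). Bhlhe40 (chromosome 6, 108660629 to 108666925, plus strand) encodes a repressor that supports cytokine production and mitochondrial fitness of T cells. It had 185, 209 and 211 CPM in KO replicates 4 to 6, against 164, 241 and 206 CPM in WT replicates 1 to 3. The WT libraries spanned the whole KO range. The log2 fold was -0.01 (SE 0.13; edgeR adjusted p = 0.99), 0.12 without WT replicate 2 and -0.15 without WT replicate 1.

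Runx3 (chromosome 4, 135120652 to 135177990, plus strand) encodes the Runt factor that fixes the CD8 lineage and opens chromatin at effector genes. It had 171, 199 and 196 CPM in KO replicates 4 to 6, against 171, 197 and 206 CPM in WT replicates 1 to 3. Each group held 1 lower library and 2 higher ones. The fold was 0.987 with an interval of 0.858 to 1.14 (log2 fold -0.02, SE 0.09; edgeR adjusted p = 0.97), and the estimate was 0.05 without KO replicate 4.

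The library profiles showed which samples carried the estimates. KO replicate 5 was the lowest of all libraries for 6 of the 10 factors and WT replicate 1 for 3 (Prdm1, Runx3 and Bhlhe40). Some of these ranks were near-ties. Zeb2 had 20.5465 CPM in KO replicate 5 and 20.5476 CPM in KO replicate 4. Batf had 15.2281 CPM in KO replicate 5 and 15.2332 CPM in KO replicate 6. In WT replicate 1 and KO replicate 4, Prdm1 had 1.225 and 1.233 CPM and Runx3 had 170.8 and 171.3 CPM. WT replicate 2 was the highest for 4 and WT replicate 3 for 3. Measured from each factor's mean over the 6 libraries, the median of the 10 factors was -0.13, -0.24 and 0.06 log2 units in KO replicates 4 to 6, against -0.02, 0.28 and 0.08 log2 units in WT replicates 1 to 3. Among all pairs of factors, the profiles of Id2 and Zeb2 lay nearest to each other, with a root mean square difference of 0.10 log2 units over the 6 libraries. The Runx3 and Bhlhe40 profiles came next, at 0.11, and then those of Tbx21 and Batf, at 0.12. This difference is not scaled by how much a factor varies. The highest library exceeded the lowest only 1.20-fold for Runx3 and 1.18-fold for Batf. A small difference between such steady factors need not mean a shared pattern.

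**Figure D3:**
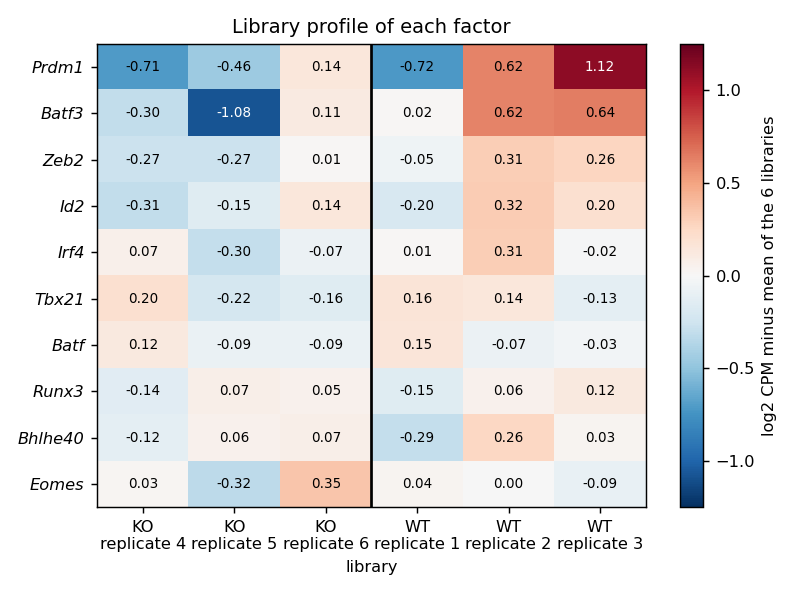
Log2 CPM of each factor minus its mean over the 6 libraries (colour and number), with the KO libraries left of the line and the WT libraries right of it. Prdm1, Batf3, Zeb2 and Id2 are highest in WT replicates 2 and 3, while WT replicate 1 and KO replicate 6 lie between the extremes for Batf3 and Zeb2.

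Leaving out WT replicate 1 changed the picture most. The KO and WT libraries then did not overlap for 4 of 10 factors (Id2, Prdm1, Zeb2 and Batf3, all lower in KO), beside 34.6% of all tested genes in the same 5 libraries. Without KO replicate 4 there were 3 (Tbx21, Irf4 and Batf, all lower), beside 28.2% of all tested genes, and without KO replicate 6 there were 2 (Zeb2 and Batf3, both lower), beside 19.6%. Groups of 2 and 3 libraries separate more often than groups of 3 and 3, as these shares show. No factor was called by edgeR without any of the 6 libraries, although without WT replicate 1 the test called 119 genes in all, 0.764% of those tested.

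**Figure D4:**
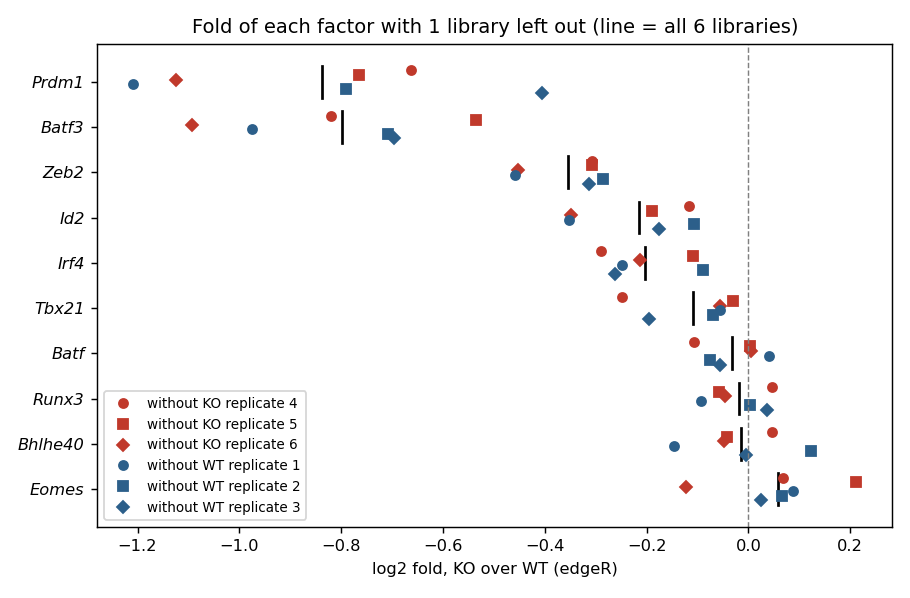
Log2 fold (KO over WT, horizontal axis) of each factor with 1 library left out, beside the value from all 6 libraries (black line). Prdm1 runs from -1.21 to -0.41, and the points of Eomes, Batf, Runx3 and Bhlhe40 lie on both sides of zero.

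Ratios of counts within a library do not depend on library scaling, and 8 pairs of related or opposing factors were described in this way, without a test. The pairs were chosen with results of these data known. The ratio of Zeb2 to Zeb1, whose products occupy similar E-boxes and act in opposite ways on memory cells, was 0.299, 0.291 and 0.325 in KO replicates 4 to 6, against 0.372, 0.466 and 0.435 in WT replicates 1 to 3. These ranges did not overlap, and neither did those of Zeb1 alone (higher in KO), while those of Zeb2 alone overlapped. How often ratios of other genes fail to overlap was not worked out. The ratio of Id2 to Id3, the related inhibitor tied to memory precursors, was 0.612, 0.634 and 1.03 in KO replicates 4 to 6, against 0.806, 1.44 and 1.42 in WT replicates 1 to 3, and its ranges overlapped through WT replicate 1. The ratio of Tbx21 to Eomes was 0.630, 0.603 and 0.394 in KO replicates 4 to 6, against 0.609, 0.616 and 0.545 in WT replicates 1 to 3, with KO replicate 6 as the low value. Batf3 to Batf averaged 0.673 ± 0.276 in KO and 1.16 ± 0.338 in WT (SD, n = 3 each), with overlap. Prdm1 to Bcl6, Runx3 to Runx1 and Bhlhe40 to Bhlhe41 overlapped too, and Irf4 to Irf8 did not, at 1.16 to 1.256 in KO and just above, from 1.259 to 1.53, in WT.

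By a fixed rule, the 2 tested genes with the nearest profile were taken for the 3 factors with the largest estimates. For Prdm1 they were Apol10b and Pdlim4, at root mean square differences of 0.0641 and 0.139 log2 units over 6 libraries. For Batf3 they were Ehbp1 (0.108) and Gzmb, granzyme B (0.129). Gzmb had 924, 508 and 1149 CPM in KO replicates 4 to 6, against 891, 1691 and 1489.8 CPM in WT replicates 1 to 3, so KO replicate 5 was lowest and WT replicates 2 and 3 highest, as for Batf3. For Zeb2 they were Csrnp1 (0.0387) and Spsb1 (0.0565), and Csrnp1 averaged 84.0 ± 6.16 CPM in KO and 106 ± 14.6 CPM in WT (SD, n = 3 each; edgeR adjusted p = 0.61). With 6 libraries and 15186 genes close profiles are easily found.

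Gene lists around the factors were read from the same fit over all genes, and edgeR called 0 genes of any list with all 6 libraries. The lists were chosen with earlier results of these data known, so their counts describe the lists and test nothing. They also share genes. Il2ra and Il12rb2 count as effector targets and as inducing signals. Id3 and Zeb1 count as relatives of the factors and as naive and memory factors. Bach2 counts among BATF-IRF4 partners and related bZIP factors and among naive and memory factors. Of 24 tested effector genes known as targets of the factors, 21 had estimates below zero, beside 47.6% of all tested genes. At an unadjusted p under 0.05, 11 were lower and 0 higher, beside 3.44% lower and 3.82% higher among all tested genes. Their median log2 fold was -0.45. The KO and WT libraries did not overlap for 8 of them, all lower in KO, beside 12.8% of all tested genes in either direction. The summed level of the list was 3520 to 4390 CPM in KO and 4467 to 6202 CPM in WT. The chemokine gene Ccl4 had 257, 205 and 241 CPM in KO replicates 4 to 6, against 319, 455 and 357 CPM in WT replicates 1 to 3, without overlap (edgeR adjusted p = 0.53; DESeq2 adjusted p = 0.000855). Ccl3, a related chemokine gene, averaged 310.0 ± 40.2 CPM in KO and 579 ± 174 CPM in WT (SD, n = 3 each), at adjusted p = 0.60 in edgeR and 0.0022 in DESeq2. Cxcr6, a chemokine receptor gene of tissue-homing cells, had 5.52, 5.41 and 5.10 CPM in KO replicates 4 to 6, against 6.55, 13.1 and 8.91 CPM in WT replicates 1 to 3 (edgeR adjusted p = 0.60). Klrg1, Cx3cr1 and S1pr5, genes of late effector cells, and the granzyme gene Gzmk were under 1 CPM in every library.

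Factors of naive and memory cells had estimates mostly above zero. Of 13 tested, 11 were positive and 2 negative, where 47.6% of all tested genes were below zero. At an unadjusted p under 0.05, 3 were higher, beside 3.82% of all tested genes, and the median log2 fold was 0.18. Every KO library lay above every WT library for 3 (Myb, Tcf7 and Zeb1) and below for 1 (Foxp1). Groups did not overlap for 12.8% of all tested genes, both directions together. Foxp1 averaged 403 ± 9.07 CPM in KO and 428 ± 11.8 CPM in WT (SD, n = 3 each). Myb, which sustains self-renewing memory cells, had 206, 246 and 203 CPM in KO replicates 4 to 6, against 172, 109 and 131 CPM in WT replicates 1 to 3. Every KO library lay above every WT library, at a log2 fold of 0.67 (SE 0.17; edgeR adjusted p = 0.60; DESeq2 adjusted p = 0.0106). Tcf7, the TCF-1 gene, averaged 587 ± 53.4 CPM in KO and 466 ± 52.7 CPM in WT (SD, n = 3 each), without overlap (edgeR adjusted p = 0.60). Id3 had 46.7, 50.4 and 38.1 CPM in KO replicates 4 to 6, against 38.3, 30.6 and 28.6 CPM in WT replicates 1 to 3, with KO replicate 6 just under WT replicate 1 (edgeR adjusted p = 0.60). Sister genes and partners of the factors were close to all genes, with 1 of 20 tested at an unadjusted p under 0.05 (Id3, higher) and a median log2 fold of 0.06. In that list Irf2, a relative of Irf4, had a log2 fold of 0.20 and Zeb1 one of 0.12 (edgeR adjusted p = 0.69 and 0.70), and for both every KO library lay above every WT library.

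The list of BATF-IRF4 partners and related bZIP factors and the list of signals upstream had estimates mostly below zero. Of 15 partners and related bZIP factors tested, 12 were negative, where 47.6% of all tested genes were below zero. At an unadjusted p under 0.05, 4 were lower and 0 higher, beside 3.44% lower and 3.82% higher among all tested genes. The median log2 fold was -0.10. For 4 the groups did not overlap, all lower in KO, beside 12.8% of all tested genes in either direction. Atf3, a stress-induced member of the ATF family, had 51.0, 46.4 and 53.4 CPM in KO replicates 4 to 6, against 57.4, 83.6 and 71.9 CPM in WT replicates 1 to 3, without overlap (edgeR adjusted p = 0.60). The small Maf genes Mafg (log2 fold -0.25) and Mafk (log2 fold -0.16) also did not overlap between the groups and were lower in KO (edgeR adjusted p = 0.61 and 0.63). The JUN genes Jun, Junb and Jund had log2 folds of 0.04, -0.17 and -0.005, and for each the groups overlapped. Of 20 genes for inducing signals, with Il2ra and Il12rb2 counted here again, 13 were negative and 7 positive. Their median log2 fold was -0.10. Of these, 5 passed an unadjusted p under 0.05 downwards and 1 upwards, beside 3.44% and 3.82% of all tested genes. Groups did not overlap for 5 lower in KO and 1 higher, beside the same 12.8% of all tested genes. Stat4, the transducer of IL-12 signals that induces T-bet, had 79.5, 72.3 and 76.1 CPM in KO replicates 4 to 6, against 63.3, 57.6 and 52.2 CPM in WT replicates 1 to 3 (log2 fold 0.40; edgeR adjusted p = 0.53; DESeq2 adjusted p = 0.0083). Stat5a, a transducer of IL-2 signals, averaged 262 ± 6.70 CPM in KO and 302 ± 7.21 CPM in WT (SD, n = 3 each), at adjusted p = 0.53 in edgeR and 0.0106 in DESeq2. Nfkb1, the p105 and p50 subunit gene of canonical NF-kB, averaged 885 ± 23.7 CPM in KO and 1017 ± 51.7 CPM in WT (SD, n = 3 each; edgeR adjusted p = 0.60).

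**Figure D5:**
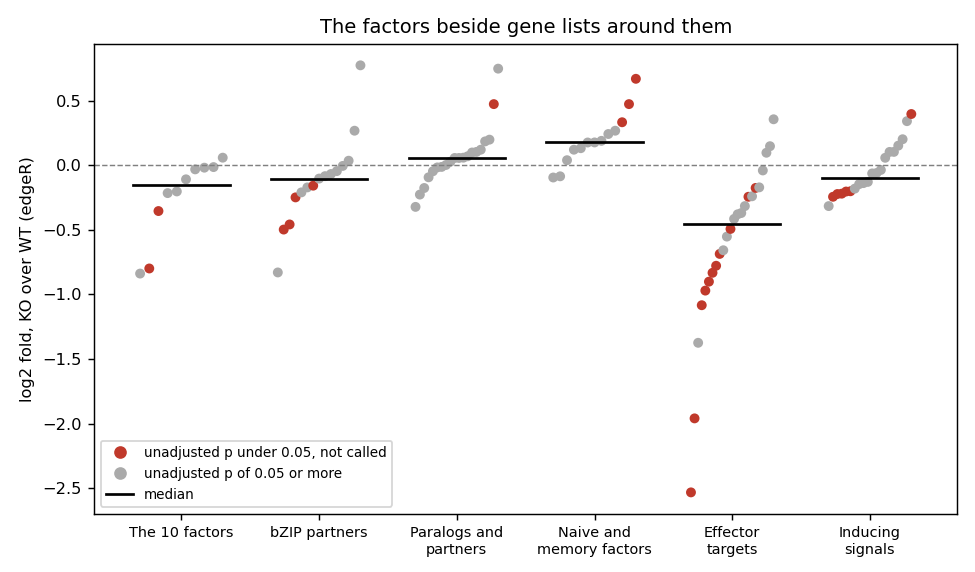
Log2 fold (KO over WT, vertical axis) of the 10 factors and of the tested genes of 5 lists around them, each point 1 gene and each black line a median. The medians are -0.16 for the factors, -0.45 for the effector targets and 0.18 for the naive and memory factors, and no point passed an adjusted p under 0.05 in edgeR (DESeq2 called Ccl3, Ccl4, Myb, Stat4 and Stat5a).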

How the data were processed

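RNA of 3 KO and 3 WT libraries was prepared with Trizol and Illumina protocols, per the labels' protocols. The file deposited by the authors gives raw counts for 49492 gene symbols, with a column for each library. HTSeq 0.9.1, DESeq2 and mm10 are named without a role, per the submitters' processing notes. Aligner, annotation and strandedness: not given in the sources used here. Reads of overlapping genes on opposite strands therefore cannot be told apart. Libraries were grouped by their titles, 0 columns were left unused, and total counts per library are in the text.

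The quasi-likelihood test of edgeR 4.0.16 (R 4.3.3) was run on the counts after filterByExpr, with TMM normalisation and robust estimation, with Benjamini-Hochberg adjustment over all 15186 tested genes. An adjusted p under 0.05 was a call. SEs came from the fold and the F statistic, and intervals are at the 95% level. CPM are counts scaled with TMM factors, RPKM used exon lengths from GENCODE M21 on GRCm38 (the mm10 assembly), and profiles used log2 CPM with a prior count of 2. Start regions came from RefSeq on GRCm38.p6. Alternatives were DESeq2 1.42.0, limma-voom (limma 3.58.1), RLE or upper-quartile scaling, a filter of 1 CPM in at least 3 libraries or none, no robust estimation, a term for sex and each library left out. The procedure was tested on simulated counts. The pass mark for recovery was set at a fold above every estimate of the factors, so it does not measure sensitivity at their size.

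The factors and lists were chosen with earlier results of these data known. Named genes were all 10 factors, up to 3 genes with the smallest p per list, the 2 nearest profiles of the 3 factors with the largest estimates, Map3k14 and cell markers. Other genes named were chosen after their values were seen.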

Additional observations from a re-analysis of the deposited data

How the results depend on the processing

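None of the 10 factors was called under any of the 14 alternatives. Over all tested genes edgeR called 1, against 10 (all higher) without a low-count filter and 89 in DESeq2 (64 higher and 25 lower), and leaving out 1 library gave 1 to 119 (1 to 52 higher, 0 to 67 lower), the highest without WT replicate 1. Factors whose groups did not overlap numbered 0 with all libraries and 0 to 4 with 1 library left out. Factors at an unadjusted p under 0.05 numbered 2, against 1 (Zeb2) with a term for sex, 1 (Zeb2) without a low-count filter and 0 to 4 with 1 library left out. List genes called numbered 0, but DESeq2 called 1 naive and memory factor (Myb), 2 effector targets (Ccl3 and Ccl4) and 2 inducing signals (Stat4 and Stat5a). Leaving out 1 library gave 0 to 2 calls among BATF-IRF4 partners and related bZIP factors (Atf3 and Mafg) and 0 to 1 among naive and memory factors (Myb). It gave 0 to 5 among effector targets (Ccl3, Havcr2, Klrk1, Prf1 and Xcl1) and 0 to 1 among inducing signals (Stat4). Every such call was in the fit without WT replicate 1. The cause was not tested. With 1 library left out, log2 folds ran from -0.12 to 0.21 for Eomes, -0.11 to 0.040 for Batf, -0.093 to 0.047 for Runx3 and -0.15 to 0.12 for Bhlhe40, which limma-voom put at 0.00069. The other 6 factors kept estimates below zero under all 14 alternatives.

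Prdm1 had the fewest counts of the factors, 55 to 208 per library, and the widest interval. No paired analysis was possible because KO and WT libraries have no replicate number in common.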
